A study of Mus musculus with 48 samples.

Results

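The genes described here are 10 that are read in liver as signs of hepatic stellate cells and of the collagen matrix, namely Col1a1, Col1a2, Col3a1, Pdgfrb, Reln, Colec11, Hhip, Lrat, Dcn and Rgs5. They were taken by symbol from a table of 54532 mouse genes, each symbol was found once, and all 10 were among the 14555 genes that passed the filter on low counts. Expression was measured by RNA sequencing of whole liver from wild-type male C57BL/6 mice aged 8 to 10 weeks. The control arm stayed on a stable cycle of 12 h of light and 12 h of darkness, and the phase shift arm had a single advance of the light cycle by 6 h, used as simulated jet lag. Per the sampling text, livers were taken at 4 h steps between day 6 and day 7 after the shift, which gives 6 labelled zeitgeber times (ZT, hours relative to lights-on) from ZT0 to ZT20, with 4 libraries in each arm at each time and 48 in all. The design text names only ZT0 and ZT12 of day 7, and the treatment field reads the same in every sample, so arms and times follow the sample titles. The labels do not say whether ZT after the shift counts from the new lights-on, nor which animal a library came from, so p-values measure the spread between libraries.

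Hepatic stellate cells lie between hepatocytes and the sinusoidal endothelium, store vitamin A as retinyl esters, and wrap the sinusoid as its pericytes. In injured liver they lose these stores, respond to platelet-derived growth factor and transforming growth factor beta, and lay down fibrillar collagen as myofibroblasts. Lrat esterifies retinol for storage, Reln encodes a secreted glycoprotein that binds Vldlr and Lrp8, Colec11 encodes a soluble collectin that can start the lectin pathway of complement, and Hhip encodes a membrane protein that binds and restrains hedgehog ligands. Rgs5 speeds the turn-off of G proteins and marks pericytes, and Pdgfrb is the receptor for PDGF-B. Decorin, from Dcn, is a small leucine-rich proteoglycan that binds collagen fibrils and transforming growth factor beta. Col1a1 and Col1a2 encode the chains of type I collagen, and Col3a1 encodes the chain of type III collagen. Portal fibroblasts also express the fibrillar collagens and Dcn, so these genes do not mark stellate cells alone.

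In mm10 coordinates of the deposited tables, Col1a1 (ENSMUSG00000001506) lies on chromosome 11 at 94936224 to 94953042, Col1a2 (ENSMUSG00000029661) on chromosome 6 at 4504814 to 4541544 and Col3a1 (ENSMUSG00000026043) on chromosome 1 at 45311538 to 45349706, all on the plus strand. Dcn (ENSMUSG00000019929) lies on chromosome 10 at 97479609 to 97518143 and Rgs5 (ENSMUSG00000026678) on chromosome 1 at 169655501 to 169695813, also on the plus strand. Reln (ENSMUSG00000042453, chromosome 5, 21884454 to 22344702), Colec11 (ENSMUSG00000036655, chromosome 12, 28594173 to 28623377), Hhip (ENSMUSG00000064325, chromosome 8, 79965851 to 80058006) and Lrat (ENSMUSG00000028003, chromosome 3, 82892579 to 82903973) lie on the minus strand.

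The promoters below were taken from RefSeq (GRCm38.p6) as the 250 bases before the annotated start, on the strand of the gene and 5′ to 3′. Hhip is shown because it passed the test of a 24 h rhythm after the shift. Col3a1 is shown because it passed the test of any difference among the times in both arms. Reln and Rgs5 are read as signs of the same cell type and passed neither test in the main analysis. Other settings called a rhythm of Rgs5 in control and of Reln after the shift, so the windows are no clean contrast. Pdgfrb, which passed both tests, is not shown. Capitals mark matches to any of 6 motifs searched on both strands, namely the E-box CACGTG and D-box TTATGTAA of the circadian clock, the element AGGTCA of the nuclear receptors of the ROR and REV-ERB families, the CCAAT box, the TATA box TATAAA and the GC box GGGCGG. The windows are chr8:80058009-80058258 for Hhip (minus strand), chr1:45311288-45311537 for Col3a1 (plus strand), chr5:22344706-22344955 for Reln (minus strand) and chr1:169655251-169655500 for Rgs5 (plus strand).
Hhip: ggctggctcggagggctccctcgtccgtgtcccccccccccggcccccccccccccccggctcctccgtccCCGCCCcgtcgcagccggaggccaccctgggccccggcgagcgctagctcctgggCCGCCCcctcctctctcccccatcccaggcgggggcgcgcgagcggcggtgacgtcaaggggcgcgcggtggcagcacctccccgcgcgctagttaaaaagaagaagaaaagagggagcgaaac
Col3a1: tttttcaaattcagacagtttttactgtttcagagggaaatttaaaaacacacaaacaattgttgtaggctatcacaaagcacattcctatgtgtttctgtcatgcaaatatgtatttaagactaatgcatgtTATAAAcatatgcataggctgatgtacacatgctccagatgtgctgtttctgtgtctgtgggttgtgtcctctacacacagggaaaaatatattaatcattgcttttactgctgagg
Reln: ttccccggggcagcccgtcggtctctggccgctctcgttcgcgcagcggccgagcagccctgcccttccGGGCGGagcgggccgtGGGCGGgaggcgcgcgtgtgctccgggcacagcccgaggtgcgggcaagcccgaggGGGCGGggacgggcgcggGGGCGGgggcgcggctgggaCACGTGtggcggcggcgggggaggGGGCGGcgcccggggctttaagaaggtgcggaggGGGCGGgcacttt
Rgs5: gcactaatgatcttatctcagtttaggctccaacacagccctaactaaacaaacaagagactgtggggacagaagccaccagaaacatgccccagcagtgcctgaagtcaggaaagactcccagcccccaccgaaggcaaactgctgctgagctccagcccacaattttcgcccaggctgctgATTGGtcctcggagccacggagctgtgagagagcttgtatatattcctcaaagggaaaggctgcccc
The Hhip window is 76.0% G and C and holds 2 GC boxes on the opposite strand. The Col3a1 window is 35.2% G and C and holds 1 TATA box, from 117 to 112 bases before the start. Reln holds 1 E-box, from 71 to 66 bases before the start, and 6 GC boxes, and Rgs5 holds 1 CCAAT box on the opposite strand, from 67 to 63 bases before the start. Of 32851 RefSeq promoter windows of this length, 6.02% hold the E-box, 0.819% the D-box, 14.0% the AGGTCA element, 33.8% a CCAAT box, 12.4% a TATA box and 32.7% a GC box. These matches are letters in the window and no evidence of binding, and a window without a match says only that these letters are not in it. An entry was used for 7 of the 10 genes, and none for Pdgfrb, Col1a1 and Dcn.

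Total counts ran from 15370303 to 19639753 per library. Mitochondrial transcripts took 5.71% to 19.9% of the counts, with a median of 7.11%, and 8 libraries lay above 9.5%. In the phase shift arm these are replicates 1 and 2 of ZT0 and replicates 2 and 3 of ZT4, and in control replicate 2 of ZT8, replicate 2 of ZT12, replicate 1 of ZT4 and replicate 1 of ZT20. Levels are given as CPM, counts scaled to a library total of 1000000. A gene at 0 could still hold up to 3 counts, or 0.153 to 0.195 CPM, and none of the 10 genes was at 0 in any library. Markers of other liver cells were measured too, and those at 0 in some libraries were Cnn1 of smooth muscle in 8, Krt7 of cholangiocytes in 2 and Lyve1 of sinusoidal endothelium in 1.

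The order of the 10 genes was first set on FPKM, which is scaled by gene length. Dcn, at a median of 19.4 FPKM (7.59 to 28.0 over 48 libraries), and Colec11, at 18.8 (12.8 to 27.0), were the most abundant, and Dcn exceeded Colec11 in 36 libraries. Rgs5 followed at 8.23 FPKM (5.25 to 14.8), Lrat at 3.57 (1.90 to 6.28), Reln at 2.33 (0.914 to 3.47) and Col3a1 at 2.28 (1.13 to 5.98). Reln and Col3a1 could not be ordered, with Reln above Col3a1 in 22 of 48 libraries. Pdgfrb stood at 1.51 FPKM (0.783 to 2.47), Col1a2 at 0.855 (0.393 to 1.75), Col1a1 at 0.831 (0.391 to 2.78) and Hhip at 0.394 (0.135 to 0.924). Col1a2 lay above Col1a1 in 26 libraries, so this pair could not be ordered either. Apart from these pairs and that of Dcn and Colec11, neighbouring genes kept their order in 45 or more libraries. The genes proposed as stellate markers were thus detected throughout. The collagens of the activated state had medians below Dcn, Colec11, Rgs5 and Lrat per length. Hhip lay below the collagens, Pdgfrb below Col3a1, and Reln could not be ordered against Col3a1.

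**Figure D1:**
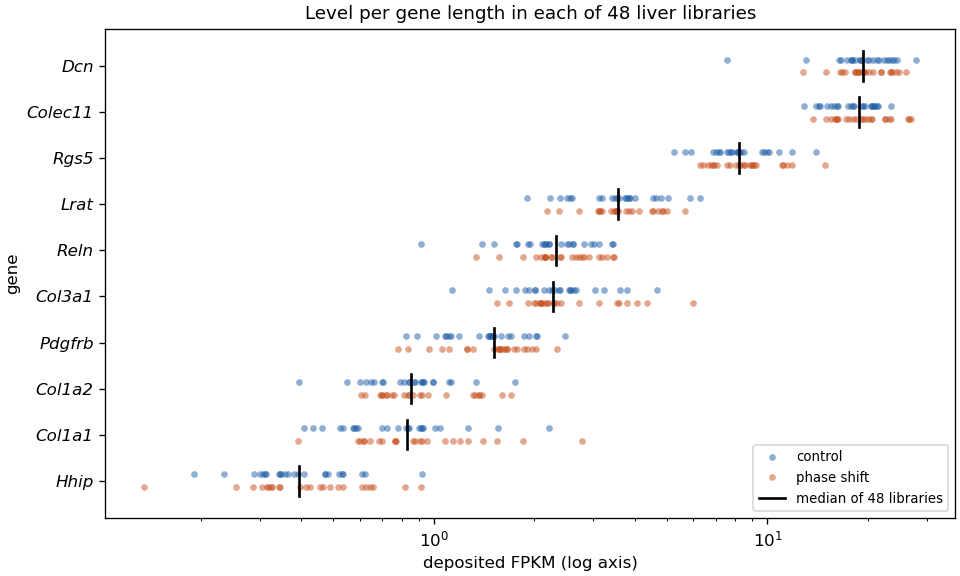
Deposited FPKM, a count scaled by gene length, of each gene (vertical axis) in each of the 48 libraries on a log axis, with control in blue, phase shift in orange and a black bar at the median of all libraries. Medians fall from 19.4 for Dcn to 0.394 for Hhip, and Dcn with Colec11, Reln with Col3a1 and Col1a2 with Col1a1 lie at nearly the same level.

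The 3 collagen genes and Hhip varied most between libraries. Over all 48 libraries the coefficient of variation of CPM was 53.9% for Col1a1, 39.1% for Col3a1, 38.5% for Hhip and 36.0% for Col1a2, against 20.5% for Rgs5, 19.6% for Dcn and 18.6% for Colec11. Pdgfrb, Lrat and Reln lay between, at 28.5%, 27.2% and 26.3%. The lowest library for Dcn, Colec11, Rgs5, Reln and the 3 collagens was control ZT8 replicate 2, and the highest for Col1a1 and Col3a1 was phase shift ZT20 replicate 2. That last library also held the highest summed level of the cell division genes, 512 CPM against a median of 9.25 over all libraries, and the lowest level of Hhip. The part of these library differences in the results below was not tested beyond the values given without them.

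Type I and type III collagen transcripts were highest at ZT0 in control liver. Col1a1 stood at 7.13, 16.1, 9.01 and 11.1 CPM in the 4 ZT0 libraries. In the 20 control libraries of the other times it stood between 2.47 and 6.93, a narrow gap without overlap. Col3a1 behaved alike, with 33.0, 50.9, 38.4 and 40.3 CPM at ZT0 and at most 31.1 at the other times. ZT0 was picked as the highest time from these same values, and the share of all genes with such a gap was not counted. Col1a2 stood at 11.9, 24.2, 15.2 and 18.0 CPM at ZT0, and here the lowest ZT0 library lay within the range of the other times. The lowest control mean of all 3 was at ZT8, with 3.42 ± 1.03 CPM for Col1a1 (SD, n = 4), 8.72 ± 3.35 for Col1a2 and 18.4 ± 7.20 for Col3a1, against 10.8 ± 3.88, 17.3 ± 5.22 and 40.7 ± 7.49 at ZT0.

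The tests of time gave different calls for the 3 collagens, and the shape of their daily profile was not tested. A harmonic curve with a period of 24 h called none of the 3 collagens in either arm, in edgeR with adjustment over all genes. A test of any difference among the 6 times (5 degrees of freedom), listed as an alternative to the curve, called all 3 in control, with edgeR adjusted p = 0.00333 for Col1a1, 0.0114 for Col3a1 and 0.0297 for Col1a2. With Pdgfrb, that test called 4 of the 10 genes in control, where it called 19.2% of all genes. After the shift it called Col3a1 (adjusted p = 0.0150), Col1a1 (0.0266), Pdgfrb and Hhip, again 4 of 10, against 21.2% of all genes, while Col1a2 missed the threshold at 0.0514. In settings chosen after seeing the data, the control call was lost without control ZT0 replicate 2 for Col3a1 (adjusted p = 0.0761) and Col1a2 (0.180), and for Col1a2 also without control ZT0 replicate 4 (0.0764) or ZT16 replicate 3 (0.0504). In the shifted arm Col1a1 lost its call without phase shift ZT20 replicate 2 (0.169), ZT20 replicate 4 (0.0812), ZT16 replicate 1 (0.0778) or ZT16 replicate 2 (0.0513).

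In whole liver, fewer cells of a type and less RNA per cell cannot be told apart, and markers of other cells moved with the collagens. The 18 genes listed for portal fibroblasts and mesothelium summed to 56.5 to 119 CPM in the control ZT0 libraries and to 24.6 to 65.6 in the other control libraries. The 10 cholangiocyte markers summed to 74.6 to 132 CPM at control ZT0 and to 30.7 to 104 at the other control times. Their part in the collagen levels was not tested. After the shift the ZT0 level was not the high point, at 5.67 ± 2.00 CPM for Col1a1, and portal fibroblast genes summed to 33.5 to 51.8 CPM and cholangiocyte markers to 42.9 to 68.1 CPM there.

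In the shifted arm the highest means of the 3 collagens fell at ZT20 and ZT8. Col1a1 stood at 5.92, 19.4, 3.83 and 12.6 CPM at ZT20, a mean of 10.4 ± 7.05, with libraries both far above and within the control range of 3.04 to 6.38. Col3a1 stood at 22.3, 62.4, 19.8 and 41.3 CPM at ZT20, and Col1a2 at 11.2, 21.2, 10.2 and 22.0. The same 2 libraries, replicates 2 and 4, were high for all 3 genes. At ZT8 the shifted libraries held 4.08, 7.75, 10.5 and 8.88 CPM of Col1a1, a tighter group at 7.80 ± 2.72.

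**Figure D2:**
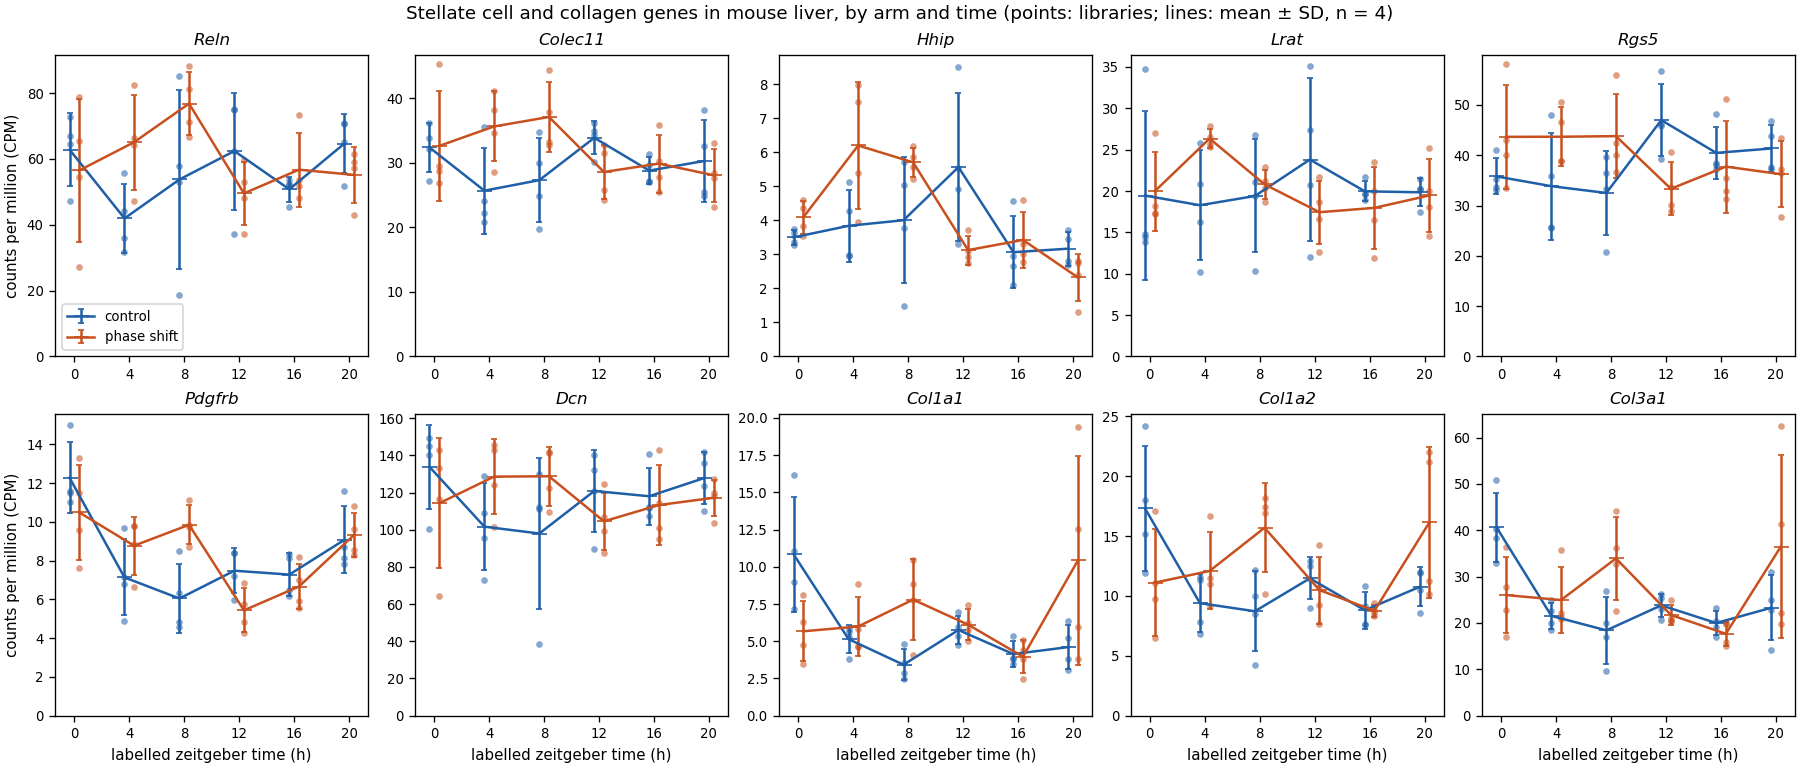
CPM of each gene (vertical axes, from 0) against labelled zeitgeber time in hours, with each library as a point and lines through the mean ± SD of 4 libraries, control in blue and phase shift in orange. Control Col1a1, Col1a2 and Col3a1 peak at ZT0, while the shifted collagens are highest at ZT8 and ZT20, where replicates at ZT20 are spread from 3.83 to 19.4 CPM for Col1a1.

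Pdgfrb, the receptor through which stellate cells and pericytes respond to PDGF-B, was the gene with a 24 h rhythm in both arms. It (ENSMUSG00000024620) lies on chromosome 18 at 61045150 to 61085061, on the plus strand of mm10. In control it stood at 11.6, 15.0, 11.0 and 11.5 CPM at ZT0 and at 8.49, 4.81, 4.57 and 6.31 at ZT8, and these libraries did not overlap. After the shift it stood at 7.62, 13.3, 9.56 and 11.5 CPM at ZT0 and at 5.76, 4.28, 6.87 and 4.83 at ZT12, again without overlap. In each arm these are the times of the highest and lowest mean, and the share of all genes without such overlap was not counted. The fitted curve had a peak-to-trough ratio of 1.63 in control, with its peak at ZT 21.7 (SE 0.97 h; edgeR adjusted p = 0.00491), and of 1.75 after the shift, with its peak at ZT 1.36 (SE 0.78 h; adjusted p = 0.00186). Pdgfrb was thus 1 of 10 genes called rhythmic in control, against 27.3% of all genes. Both calls held in all 55 alternatives, with adjusted p from 0.00161 to 0.0176 in control and from 0.000424 to 0.00715 after the shift. The difference between its 2 curves had an adjusted p of 0.216.

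Hhip, the inhibitor of hedgehog ligands, had a called rhythm after the shift. In the shifted arm it stood at 3.94, 7.98, 5.39 and 7.47 CPM at ZT4 and at 5.56, 6.19, 5.86 and 5.20 at ZT8, and at 2.76, 1.30, 2.82 and 2.40 CPM at ZT20. All 8 libraries of ZT4 and ZT8 lay above those of ZT20. These times were picked from the same values, and the share of all genes with such a gap was not counted. The fitted peak lay at ZT 5.63 (SE 0.70 h) with a peak-to-trough ratio of 2.36 (edgeR adjusted p = 0.000378). With Pdgfrb this made 2 of 10 genes called rhythmic after the shift, against 28.2% of all genes. The Hhip call held in all 55 alternatives, with adjusted p from 2.38e-05 to 0.00184.

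Control Hhip did not pass the main test, with an adjusted p of 0.0989 and a fitted peak at ZT 9.65. Its highest mean was 5.56 ± 2.17 CPM at ZT12, where the 4 libraries held 4.93, 3.29, 5.54 and 8.49. Without the 8 libraries high in mitochondrial transcripts, control Hhip passed with an adjusted p of 0.00949. A rhythm called in only 1 arm does not show a difference between arms, and the test of that difference gave an adjusted p of 0.175 for Hhip.

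For the other stellate genes, Reln, Colec11, Lrat, Rgs5 and Dcn, edgeR called no rhythm in either arm. Rgs5 in control (adjusted p = 0.0523) and Colec11 after the shift (0.0550) lay nearest to the threshold, and DESeq2 called both (0.0423 and 0.0466). With the mitochondrial share as a covariate, edgeR called Rgs5 in control (0.0330) and Reln after the shift (0.0355). Control Rgs5 ran from 32.5 ± 8.28 CPM at ZT8 to 47.0 ± 7.22 at ZT12, and shifted Colec11 from 28.1 ± 4.07 at ZT20 to 37.1 ± 5.37 at ZT8. Dcn group means ran from 98.0 to 134 CPM and Lrat means from 17.4 to 26.3. Uncalled curves have poorly placed peaks, and those of the 5 genes lay between ZT 14.2 and ZT 19.0 in control and between ZT 3.20 and ZT 5.91 after the shift. The test of a difference between the curves called 0 of 10 genes in edgeR, against 0.186% of all genes, with the lowest adjusted p at 0.134 for Rgs5, and DESeq2 called Rgs5 (adjusted p = 0.0423) and gave no adjusted p for Pdgfrb, Col1a1 and Hhip. Unadjusted, 7 of the 10 had p under 0.05 in that test, against 19.3% of all genes. Unadjusted p for rhythm itself was under 0.05 for 5 of the 10 in control, against 40.5% of all genes, and for 3 after the shift, against 39.1%.

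The comparison of the arms at each time asks whether these genes stood at another level 6 to 7 days after the advance. At each of the 6 times edgeR called 0 of the 10 genes at an adjusted p under 0.05, and so did DESeq2. The background was as sparse, with 0% of all genes called at ZT0, ZT12 and ZT16, 0.117% at ZT4, 0.131% at ZT8 and 0.295% at ZT20. Averaged over the day, 0 of 10 genes and 0% of all genes were called, and the test of the whole time course called 0 of 10 genes, against 0.137% of all genes. DESeq2 called 3 of the 10 in that last test, Pdgfrb, Col1a1 and Hhip. The share of all genes that DESeq2 called is not given here, and the 0.137% is that of edgeR. In that test 8 of 10 had an unadjusted edgeR p under 0.05, against 11% of all genes. The values below are therefore differences that did not pass the threshold, and are given with their errors.

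At ZT8 all 10 means lay above control, with a median log2 difference (phase shift minus control) of 0.49 against -0.01 over all genes. Of all genes 48.2% lay above control. The 10 genes varied together within groups, so counts of their signs at any time are not independent agreements. Unadjusted p under 0.05 was reached by 6 genes, all higher, against 3.98% of all genes in that direction. The collagens had the largest differences, 1.14 for Col1a1 (SE 0.33, adjusted p = 0.168), 0.85 for Col3a1 (SE 0.25, 0.174) and 0.81 for Col1a2 (SE 0.25, 0.220). Control Col1a1 libraries held 4.81, 2.47, 3.56 and 2.84 CPM, and the arms overlapped in 1 library of each, 4.81 in control and 4.08 after the shift. Col3a1 stood at 27.0, 9.63, 20.0 and 17.0 CPM in control and at 22.6, 36.2, 44.2 and 32.8 after the shift, and the arms overlapped.

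Pdgfrb at ZT8 stood at 8.69, 9.85, 11.1 and 9.73 CPM after the shift, all above the 4 control libraries given above. It was the single gene of the 10 with no overlap at this time on normalized log2 CPM, where 1.92% of all genes had all shifted libraries above control. Its log2 difference was 0.66 (SE 0.18, edgeR adjusted p = 0.142), with 0.54 to 0.84 over the alternatives and adjusted p from 0.0535 to 0.814. Reln was higher by 0.50 (SE 0.24, 0.421) and Colec11 by 0.40 (SE 0.16, 0.345), and the smallest difference was 0.07 for Lrat.

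Libraries and other cell types moved with the ZT8 difference. Control ZT8 replicate 2 was the lowest of its group for every one of the 10 genes except Pdgfrb, and without it the difference was 1.07 for Col1a1, 0.62 for Pdgfrb and 0.24 for Reln. Without the 8 libraries high in mitochondrial transcripts, Col1a1 differed by 1.06, Col3a1 by 0.67, Pdgfrb by 0.61 and Reln by 0.23. At ZT8 the means of 12 of 12 Kupffer cell markers and 14 of 14 sinusoidal endothelial markers also lay above control, with medians of 0.70 and 0.50, and 0 of each list were called. Summed levels ran from 23.1 to 524 CPM in control and 202 to 916 after the shift for Kupffer cells, and from 40.3 to 624 and 209 to 722 for sinusoidal endothelium. Portal fibroblast genes summed to 24.6 to 44.7 CPM in control and 40.2 to 65.3 after the shift. Their part in the result was not tested.

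At ZT4 all 10 means again lay above control, where 49.3% of all genes did, with a median of 0.43 against -0.005 over all genes. Unadjusted p under 0.05 was reached by 5 genes, all higher, against 4.06% of all genes. These were stellate markers, and the collagens and Dcn did not reach it. Col1a2 still differed by 0.42 (SE 0.25, edgeR adjusted p = 0.652), about as much as Rgs5. Dcn differed by 0.39 (SE 0.20, 0.558), and Col1a1 and Col3a1 by 0.27 each (SE 0.32 and 0.25). The genes that reached it were the following. Hhip differed by 0.75 (SE 0.27, edgeR adjusted p = 0.321), Reln by 0.68 (SE 0.24, 0.283), Lrat by 0.59 (SE 0.26, 0.459), Colec11 by 0.53 (SE 0.16, 0.186) and Rgs5 by 0.43 (SE 0.20, 0.494). Reln stood at 31.7, 44.1, 55.8 and 36.1 CPM in control and at 66.4, 64.2, 47.2 and 82.5 after the shift, with 1 library of each arm overlapping. Lrat, the retinol-esterifying enzyme, stood at 16.3, 20.9, 25.8 and 10.2 CPM in control and at 26.5, 25.6, 27.8 and 25.4 after the shift, which overlapped in plain CPM and did not on normalized log2 CPM, as held for 1.74% of all genes.

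Here the means of the sinusoidal markers went the other way. Those of 1 of 12 Kupffer cell markers and 0 of 14 sinusoidal endothelial markers lay above control at ZT4, each list with a median of -0.32. Kupffer markers summed to 136, 415, 400 and 354 CPM in control and to 519, 68.2, 88.8 and 363 after the shift. Endothelial markers summed to 107, 553, 423 and 309 CPM, and to 551, 113, 92.5 and 331. The low sums, in control replicate 1 and phase shift replicates 2 and 3, are of the libraries high in mitochondrial transcripts. Of the 8 libraries high in mitochondrial transcripts 3 are at this time, and without all 8 the mean of 9 of the 10 genes lay above control. Of the 5 genes with an unadjusted p under 0.05, Reln alone kept it, at 0.74 (adjusted p = 0.151), while Hhip differed by 0.48, Lrat by 0.48, Colec11 by 0.34 and Rgs5 by 0.31. Over the alternatives 9 or 10 of the 10 means lay above control at ZT4 and at ZT8, a count made after seeing the data.

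At ZT0 the collagens lay below control, the opposite of their order at ZT8. Col1a1 differed by -0.83 (SE 0.32), Col1a2 by -0.54 (SE 0.25) and Col3a1 by -0.54 (SE 0.25), each with an edgeR adjusted p of 0.657, against 2.56% of all genes with an unadjusted p under 0.05 in that direction. Col1a2 stood at 11.9, 24.2, 15.2 and 18.0 CPM in control and at 6.46, 17.1, 11.1 and 9.76 after the shift, and the arms overlapped. Rgs5 lay above control by 0.43 with the same adjusted p, where 4.8% of all genes were higher with an unadjusted p under 0.05. Without the 8 libraries high in mitochondrial transcripts, 2 of which are shifted ZT0 libraries, Rgs5 differed by 0.14. Hhip was above in every shifted library on normalized log2 CPM, as were 1.76% of all genes, although plain CPM overlapped at 3.27 to 3.75 and 3.55 to 4.59. At ZT0 1 of 15 portal fibroblast genes, 1 of 8 cholangiocyte markers and 0 of 14 sinusoidal endothelial markers had a mean above control, with medians of -0.60, -0.78 and -0.62.

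At ZT12 9 of the 10 means lay below control, with a median of -0.32 against -0.008 over all genes. Of all genes 48.7% lay above control at this time. Hhip differed by -0.85 (SE 0.28), Rgs5 by -0.54 (SE 0.20) and Pdgfrb by -0.49 (SE 0.18), each with an edgeR adjusted p of 0.806, and 2.73% of all genes had an unadjusted p under 0.05 in that direction. Rgs5 stood at 45.9, 56.7, 46.1 and 39.3 CPM in control and at 28.9, 30.0, 40.7 and 33.7 after the shift, with 1 library of each arm overlapping. Hhip, at 3.73, 3.10, 2.93 and 2.74 CPM after the shift, overlapped with control in 1 library of each arm as well. Colec11 lay below control in every shifted library on normalized log2 CPM, as did 2.13% of all genes, and overlapped in plain CPM.

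At ZT20 Col1a1 differed by 1.09 (SE 0.32, edgeR adjusted p = 0.195) and Col3a1 by 0.56 (SE 0.25, 0.625), against 4.04% of all genes with an unadjusted p under 0.05 and a higher level. The Col1a1 value rested on single libraries. Without phase shift ZT20 replicate 2 it was 0.63 with an adjusted p of 0.9998, and without replicate 3 it was 1.35 with an adjusted p of 0.0170, the single setting in which any of the 10 genes was called at a single time. Col3a1 differed by 0.20 without replicate 2. Of 9 cell division genes, 7 were called higher at this time, against 0.295% of all genes called in either direction. Their list summed to 512 CPM in replicate 2 alone. In replicates 1, 3 and 4 it summed to 9.43, 6.35 and 11.25 CPM, within the 6.42 to 11.48 of control ZT20. In replicate 4, where the collagens were high too, portal fibroblast genes summed to 96.4 CPM and smooth muscle genes to 127 CPM, the highest of the group, whose medians were 44.5 and 90.9. The part of these genes in the result was not tested. At ZT16 0 of the 10 genes had an unadjusted p under 0.05, against 4.42% of all genes.

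Averaged over the 6 times, all 10 means lay above control, where 49.3% of all genes did. The median of the 10 was 0.09 against -0.0015 over all genes, and 7 to 10 lay above control in the alternatives. The largest was Col1a1 at 0.28 (SE 0.13, edgeR unadjusted p = 0.0395, adjusted p = 0.747). No other of the 10 had an unadjusted p under 0.05 in this test, against 6.45% of all genes.

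**Figure D3:**
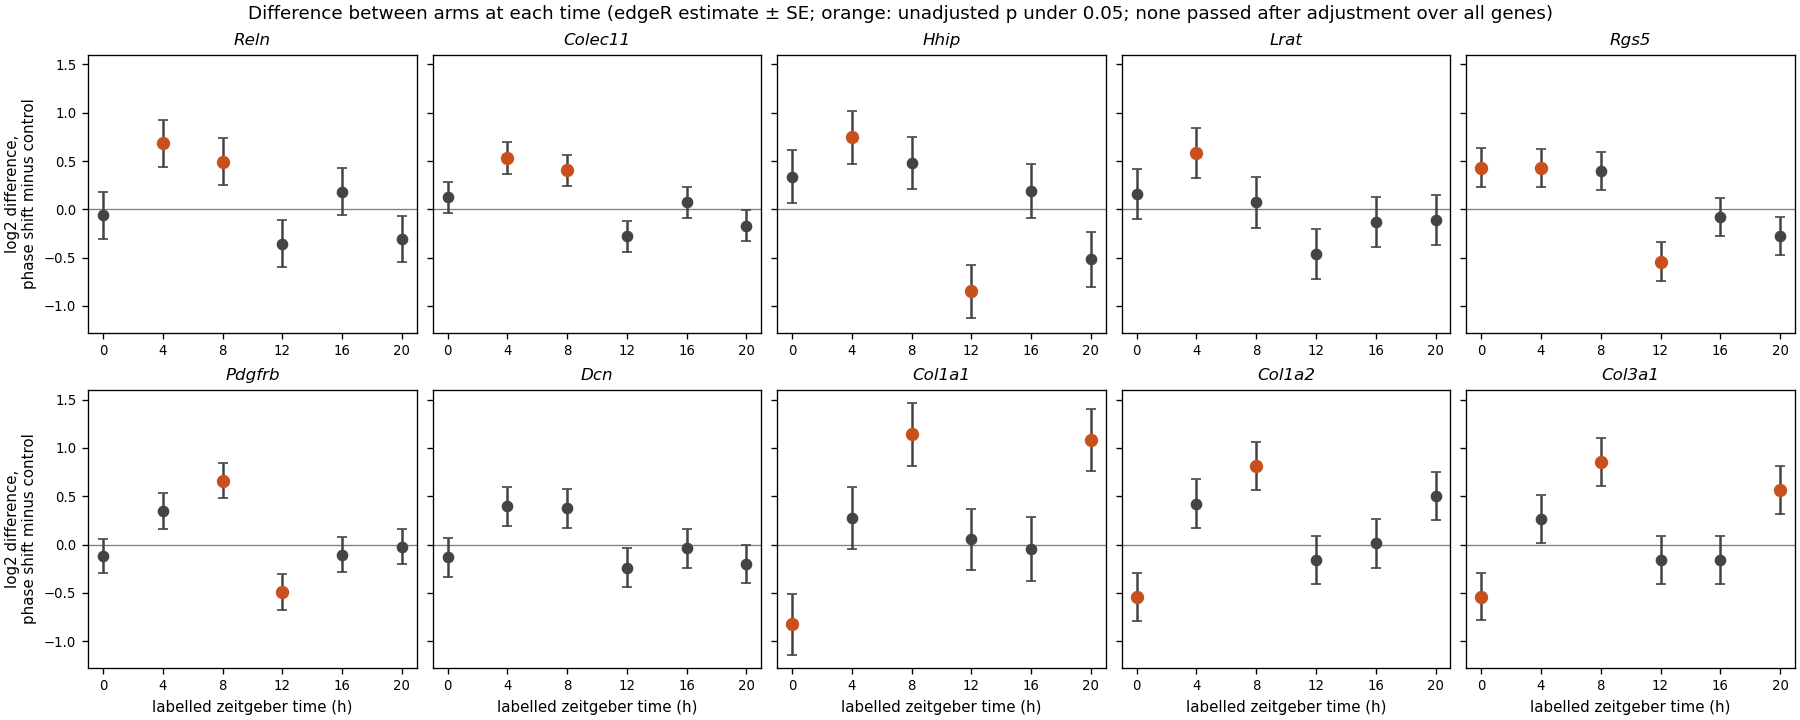
Log2 difference, phase shift minus control, with its standard error as a bar, for each gene at each labelled zeitgeber time in hours, with orange marking an unadjusted p under 0.05. All 10 genes lie above 0 at ZT4 and ZT8 and 9 of 10 lie below it at ZT12, and no point has an adjusted p under 0.05.

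Lists of related genes, none of which holds any of the 10, were read beside them by their counts. At ZT8 the matrix lists lay above control, with 15 of 19 other collagen chains (median 0.43), 13 of 15 small leucine-rich proteoglycans and matrix proteins (0.49) and 19 of 24 genes of collagen processing and cross-linking (0.22), and 0 of each were called. Unadjusted p under 0.05 and a higher level was reached by 6, 6 and 5 of them, against 3.98% of all genes. Among these Col6a1, a chain of microfibrillar type VI collagen, differed by 0.68, Col14a1 by 0.71 and P3h3, a member of the family of collagen prolyl hydroxylases, by 0.78 (edgeR adjusted p = 0.172). Of 22 genes of PDGF and TGF-beta signalling 17 lay above control (median 0.30), while hedgehog signalling (4 of 10, median -0.04) and retinoid storage and use (7 of 22, median -0.05) did not lie mostly above.

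At ZT4 the list of stellate identity stood apart from the other collagen chains. It was not tested without the libraries high in mitochondrial transcripts. Of its 22 tested genes 20 lay above control (median 0.33) and 7 had an unadjusted p under 0.05, against 4.06% of all genes, with 0 called. Ngfr, the neurotrophin receptor of stellate cells, differed by 0.98 (edgeR adjusted p = 0.119), Angptl6 by 0.80, Pth1r by 0.58 and Cygb, the globin of quiescent stellate cells, by 0.57. Other collagen chains were evenly split at this time, with 10 of 19 above and a median of 0.01. The list of small leucine-rich proteoglycans and matrix proteins summed to 159, 237, 236 and 174 CPM in control. After the shift it summed to 247, 249, 176 and 263 CPM. At ZT0 1 of 16 myofibroblast genes lay above control (median -0.33), and at ZT20 16 of 19 other collagen chains did (0.41), and no gene of these lists was called.

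Time of day itself was called for more of these genes, in each arm on its own. Ngfr had a peak-to-trough ratio of 2.46 with a peak at ZT 22.8 in control (edgeR adjusted p = 4.18e-05) and of 3.87 with a peak at ZT 1.23 after the shift (2.59e-08). Of the 22 stellate identity genes 4 were called in control and 8 after the shift, against 27.3% and 28.2% of all genes, so the control count lies below that share. Collagen processing had 9 and 11 of 24, among them Serpinh1, the collagen chaperone HSP47, with a ratio of 2.62 and a peak at ZT 19.6 in control and a ratio of 2.17 and a peak at ZT 20.0 after the shift. P4ha1, a subunit of the prolyl 4-hydroxylase that lets the collagen helix form, had ratios of 2.84 and 2.93 and peaks at ZT 18.2 and ZT 17.5.

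Single ligands and receptors were called as well. The counts called in their lists are not given here beside the share of all genes, so they are no result about these pathways. Pdgfc, a ligand of the PDGF family, had ratios of 2.98 and 2.26 and peaks at ZT 22.3 and ZT 23.2, and Shh, a hedgehog ligand, had ratios of 3.84 and 5.59 and peaks at ZT 15.3 and ZT 17.1. Smo, the transducer of hedgehog signals, was called in control with a peak at ZT 2.26. The TGF-beta receptors Tgfbr1 and Tgfbr2 were called after the shift, with peaks at ZT 10.8 and ZT 10.1. Of 19 other collagen chains 6 were called in control and 3 after the shift, near and below the shares of all genes, led by Col27a1 with ratios of 3.30 and 2.98. A difference of rhythm between the arms was called for 0 genes of each of these lists.

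Within groups the 10 genes varied in sets. Each library was expressed as its deviation from the mean of its group, and the correlations across the 48 libraries are descriptions, since libraries share depth, dissection and RNA quality. The 3 collagens varied together, with Pearson r from 0.75 to 0.84, and Reln varied with Dcn at 0.89. Of 45 pairs 44 were positive, with a median of 0.35, and 0.35 also without the 8 libraries high in mitochondrial transcripts. Single pairs changed more without those libraries, where 39 of 45 were positive, Reln with Dcn fell to 0.69, Colec11 with Dcn went from 0.55 to 0.78, and Hhip with Col3a1 from 0.12 to -0.24. The collagens stayed at 0.76 to 0.85. Pdgfrb had r from 0.13 to 0.46 with the other 9 genes, and Hhip with Col1a1 had -0.03.

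Reln and Dcn shared a further feature, in that both were low where mitochondrial transcripts were high. Their r with the mitochondrial share was -0.58 and -0.43, against 0.24 for Rgs5 and 0.09 for Colec11. With the summed Kupffer cell markers r was 0.67 for Reln and 0.53 for Dcn, and with sinusoidal endothelial markers 0.69 and 0.55. With the portal fibroblast genes r was highest for Col1a2, at 0.71. Col1a1 followed at 0.57, Reln at 0.56, and Col3a1 and Dcn at 0.54 each, while Rgs5 was lowest at 0.02. Col1a1 and Col3a1 had r of 0.45 and 0.46 with cell division genes and Hhip -0.38. Cell division genes were far higher in phase shift ZT20 replicate 2, at 512 CPM, than in any other library. That library was also the highest for Col1a1 and Col3a1 and the lowest for Hhip. These r may therefore rest on it, and they were not computed without it.

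**Figure D4:**
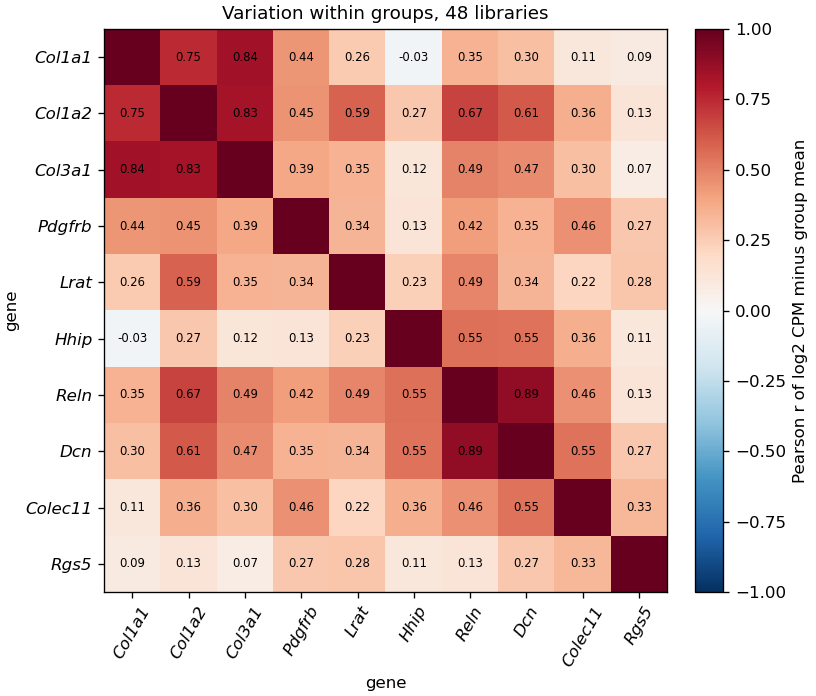
Pearson r between each pair of the 10 genes (both axes), on log2 CPM minus the mean of the group, across 48 libraries, with the value in colour. The 3 collagens form a block at 0.75 to 0.84, Reln and Dcn stand at 0.89, and Rgs5 has low values with the collagens.

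By the same measure, the protein-coding genes outside the 10 most like Col1a1 were Col6a1 (r = 0.67), Rhbdf1 (0.66), Vim (0.64), Ehd2 (0.63) and Sparc (0.62). Those most like Reln were Abcc9 (0.92), Hgf (0.91), Tgfbi (0.91), Pam (0.90) and Col14a1 (0.90). Those most like Rgs5 were Colec10 (0.57), Rpap2 (0.56), Spryd7 (0.56), Chn2 (0.55) and Eva1c (0.55), all over 48 libraries. The ratio of the type I chains, Col1a1 over Col1a2 in FPKM, had a median of 0.949 and ran from 0.548 to 1.74 across libraries. Col3a1 over Col1a2 was steadier, at 2.71 with a range of 2.09 to 3.73.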

How the data were processed

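RNA was measured in 48 liver libraries. Per the labels' protocols, total RNA was extracted with TRIzol, and reads were produced, mapped and quantified by a sequencing company. The submitters' processing notes name the mouse build mm10, and aligner and counter were not given in the sources used here. Raw counts are whole numbers, as the authors deposited them per gene. The deposited FPKM table holds these counts over gene length and a library factor. Values at 100 or more counts departed from that relation by at most 5.22e-13%, and FPKM was used only for levels between genes.

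CPM is the count scaled to a library total of 1000000. Differences were tested with edgeR 4.0.16 (limma 3.58.1, R 4.3.3) on the counts, with filterByExpr, TMM normalization, robust quasi-likelihood fits of 12 group means and Benjamini-Hochberg adjustment over 14555 genes at a threshold of 0.05. Rhythm was fitted per arm with cosine and sine terms of a fixed 24 h period and an intercept. Likeness and overlap used TMM-normalized log2 CPM. Of the tests, only the edgeR arm difference at ZT8 and the edgeR 24 h rhythm in control were tried on simulated counts. The members, the gene lists and the tests were chosen with earlier results of these data known. Named genes are the 10 members, up to 4 genes of a list with the smallest p in the comparison described, list genes that passed the threshold, and the 5 protein-coding genes most like each of Col1a1, Reln and Rgs5. Alternatives were DESeq2 1.42.0, its size factors, no filter, a mitochondrial covariate, a replicate block, single-time fits and each library left out. Figures used Python 3.11.15, pandas 2.3.3, numpy 2.4.6 and matplotlib 3.10.9. No 2 libraries of a group agreed within counting error (72 pairs, mean chi-square of a gene 13.51 to 234.72). Limits at 0 cover counting error only.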

Additional observations from a re-analysis of the deposited data

Results flagged for a closer look

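In 9 of 120 combinations of gene and group, 1 of the 4 libraries stood far from the other 3 in CPM, relative to the spread of the group. Chance gives about 1 such group in 20. The 9 fell on 7 genes. Lrat stood high in replicate 2 of control ZT0 (34.7 CPM, the others 13.8 to 14.8) and in replicate 2 of phase shift ZT0 (27.0, the others 17.3 to 18.2). Also in a replicate 2 at ZT0 stood Pdgfrb in control (15.0 CPM, the others 11.0 to 11.6) and Colec11 after the shift (45.4, the others 26.8 to 29.5). In control ZT16 replicate 4, Dcn stood at 140.7 CPM against 107 to 112 in the others, and Rgs5 at 48.3 against 37.2 to 38.4. Col3a1 stood at 35.7 CPM in phase shift ZT4 replicate 2 against 20.8 to 22.1, and at 24.9 in phase shift ZT12 replicate 4 against 20.4 to 21.1. Col1a2 was the single low case, at 10.2 CPM in phase shift ZT8 replicate 1 against 16.9 to 18.2.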

How the results depend on the processing

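Among the arm differences of the 10 genes with an unadjusted p under 0.05, none changed sign in any alternative run. Arm differences at single times called 0 of the 10 genes in every alternative except at ZT20, where leaving out 1 library gave 0 to 1, with Col1a1 called without phase shift ZT20 replicate 3. The arm difference of the time course called 0 to 1 with 1 library left out, again Col1a1 without that library, and 3 with DESeq2, and the cause was not tested. The 24 h rhythm in control called 1 gene in the main analysis, 1 to 2 with 1 library left out, and 2 with DESeq2, with the mitochondrial covariate or without the 8 libraries above 9.5%. The second gene was Rgs5, or Hhip without those 8 libraries or without control ZT8 replicate 2. After the shift the rhythm called 2 genes, 2 to 4 with 1 library left out, 4 without phase shift ZT16 replicate 2, and 3 with DESeq2 (Colec11 added) or with the mitochondrial covariate (Reln added). The 5 df test of time called 4 genes in each arm in place of the curve, and 2 to 5 in control, with 2 without control ZT0 replicate 2, and 3 to 5 after the shift with 1 library left out, a set of settings chosen after seeing the data. The arm difference of rhythm called 0 genes, and 1 with DESeq2, Rgs5, while DESeq2 gave no adjusted p for Pdgfrb, Col1a1 and Hhip there. With the replicate block, 0 of the 10 genes were called in each arm difference, 1 in control rhythm and 2 in shifted rhythm, as without it. Replicate numbers showed no pairing in the deviations of the libraries from their group means. The correlation of same-numbered libraries between arms ran from -0.525 to 0.232 over 24 pairs, and 5 of 48 libraries were nearest to their own number. Such a check cannot tell whether same-numbered libraries shared their handling. The median co-variation was 0.35 with all libraries and 0.345 without the 8. Hhip and Col1a1 had the fewest counts of the 10 genes, 3249 and 5073 in total over the 48 libraries, and low counts limit small differences.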

Other observations

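Genes around retinoid storage had daily profiles in each arm although Lrat was not called. Of 22 tested genes of retinoid storage and use, 10 were called rhythmic by edgeR in control and 10 after the shift, against 27.3% and 28.2% of all genes. The genes were not all the same, since Dgat1, Rbp4 and Rdh10 were called in control alone and Rdh11, Pnpla3 and Cyp26a1 after the shift alone, and these differences between the arms were not called. Dhrs3, which reduces retinal to retinol, had a peak-to-trough ratio of 1.96 with a peak at ZT 0.83 in control (adjusted p = 0.000104) and of 2.68 with a peak at ZT 0.88 after the shift (1.39e-08). Dgat2, an acyltransferase, had ratios of 1.59 and 1.67 and peaks at ZT 12.9 and ZT 12.8, and the nuclear receptor gene Rxra had ratios of 1.42 and 1.43 and peaks at ZT 10.2 and ZT 10.3. Many of these genes are expressed by hepatocytes, and whole liver does not tell the source.

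Among relatives of Rgs5 and partners of reelin, 2 of 10 genes were called in each arm, Rgs16 and Vldlr, below the share of all genes. Rgs16 had a peak-to-trough ratio of 35.7 in control, with a peak at ZT 8.49, and of 170.8 after the shift, with a peak at ZT 8.96, whereas Rgs5 itself was not called. Vldlr, a receptor of reelin, had ratios of 2.22 and 2.34, with fitted peaks at ZT 2.41 in control and ZT 6.07 after the shift. Of 8 collectin and lectin pathway genes, 2 were called in control, near the share of all genes, and 4 after the shift, and among the latter Colec10, whose product forms complexes with that of Colec11, peaked at ZT 3.89 with a ratio of 1.52. Nid2, a basement membrane linker, had ratios of 3.23 and 2.28 and peaks at ZT 22.3 and ZT 23.0. Eln, which encodes elastin, had ratios of 2.81 and 2.43 and peaks at ZT 1.62 and ZT 0.68. Both are single genes, and the counts called in their lists are not given here. In edgeR a difference of rhythm between the arms was not called for any gene named here, and DESeq2 called it for Rgs5.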
